A study of Mus musculus with 6 samples.

Results

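The 8 genes described here act in the uptake and first breakdown steps of leucine, isoleucine and valine, the branched-chain amino acids. They are Bcat1 and Bcat2 (aminotransferases), Bckdha, Bckdhb and Dbt (subunits of the branched-chain ketoacid dehydrogenase complex), Bckdk (its kinase), and Slc7a5 and Slc3a2 (a leucine transporter). They were chosen by name and because Bcat1 was low in 1 cell line, clone 2. They are 8 of 18193 genes measured, and all 8 were among the 10342 genes whose mean signal passed a filter on low values. Together they had 11 probe sets, and each gene is represented by the one with the highest mean signal. RNA was profiled on 6 Affymetrix mouse arrays, 1 for each line of mpkCCD cells, an immortalised line from the mouse cortical collecting duct. By the labels clone 2 lacks expression of AQP2, the water channel of collecting duct principal cells, while the original cells and clones 3, 9, 10 and 11 have it. All 6 lines were kept for 5 days with 0.1 nM dDAVP, an analog of vasopressin, so no array shows untreated cells. The clones were grown from mpkCCDc14 cells, and the stated aim was to find transcripts that follow AQP2. Each line is 1 sample on 1 array, so clone 2 has no replicate, and the spread comes from 5 different lines and is not a spread of repeat cultures.

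Branched-chain amino acids enter many cells through LAT1 (Slc7a5), which is held at the plasma membrane by the CD98 heavy chain (Slc3a2) and exchanges leucine for other amino acids. An aminotransferase, cytosolic (Bcat1) or mitochondrial (Bcat2), moves the amino group to 2-oxoglutarate, which gives glutamate and a branched-chain ketoacid, and this step is reversible. The dehydrogenase complex then commits the ketoacid to oxidation in mitochondria. Its E1 part is built from Bckdha and Bckdhb and its E2 core from Dbt, while Bckdk phosphorylates E1 and inhibits the complex. Leucine taken up by LAT1 also activates the growth-regulating kinase complex mTORC1.

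Bcat1 lies on the minus strand of chr6:144993835-145076157 (GRCm38.p6). RefSeq gives it a pair of start sites 27345 bases apart. The 250 bases before each start are shown because the low Bcat1 signal of clone 2 helped choose the genes. Capitals mark CG dinucleotides, and both read 5′ to 3′ on the minus strand.
Bcat1, distal start (chr6:145076158-145076407): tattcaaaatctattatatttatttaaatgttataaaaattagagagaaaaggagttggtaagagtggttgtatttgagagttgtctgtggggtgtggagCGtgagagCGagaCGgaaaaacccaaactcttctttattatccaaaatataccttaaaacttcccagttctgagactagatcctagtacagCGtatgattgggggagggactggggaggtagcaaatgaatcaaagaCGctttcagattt
Bcat1, proximal start (chr6:145048813-145049062): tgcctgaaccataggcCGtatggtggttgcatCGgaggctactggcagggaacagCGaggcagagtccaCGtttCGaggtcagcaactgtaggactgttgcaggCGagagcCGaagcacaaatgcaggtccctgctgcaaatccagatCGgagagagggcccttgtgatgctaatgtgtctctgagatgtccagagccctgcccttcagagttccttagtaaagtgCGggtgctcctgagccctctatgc
The distal window had 37.6% G+C, 5 CG dinucleotides and 1 TATAAA match, and the proximal window had 56.4% G+C, 9 CG dinucleotides and no TATAAA match. Over the 32851 windows of this length in the table, the median was 6 CG dinucleotides and 12.4% held TATAAA on either strand. No window was available for Dbt or Slc7a5. The E-box CACGTG, which MYC and related factors can bind, occurred in 0 of the 9 windows available for 6 of the 8 genes, and in 6.02% of all windows. The amino acid response motif TGATGNAAN, bound by ATF4, also occurred in 0 of the 9, and in 3.44% of all windows. Both strands were searched, the letters of these motifs can overlap, and the counts describe the windows only. The deposited signals do not tell transcripts from the 2 starts apart.

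The labelled cell type was checked against marker genes. The summed signal of 13 principal cell markers (Aqp2 included) was 12471 in clone 2 and 21520 to 28506 in the AQP2-expressing lines, and Aqp2 itself was 159.3 in clone 2 and 3570 ± 2243 in the others (SD, n = 5). On the log2 scale used below, 8 of the 10 markers past the filter were lower in clone 2 and 2 higher. The 2 were Aqp3 (191.9 against 96.4 to 150.0 in the others) and Avpr2 (1741.9 against 1416.6 to 1745.8). Scnn1b in clone 2 (193.6) lay inside the range of the others, 96.6 to 507.4. Of these 13 markers Aqp4, Elf5 and Kcnj1 did not pass the filter on low signal. None of the 8 fibroblast, 8 endothelial and leukocyte or 5 loop of Henle and distal tubule markers passed it either. The summed proximal tubule markers were 369 in clone 2 and 918 to 1251 in the AQP2-expressing lines, and only Lrp2 of these 7 passed. The summed intercalated cell markers, 2 of 9 of which passed, were 1126 in clone 2 and 863 to 1147 in the others. Those 2 lay on opposite sides, with Atp6v1b1 at 949.3 in clone 2 and 413.0 to 687.3 in the others, and Aqp6 at 39.0 in clone 2 and 221.8 to 328.1 in the others. The part of these marker differences in the results below was not tested. The median signal of the arrays was 79.64 for clone 2 and 84.26 to 88.57 for the other lines.

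Bcat1 was lower in clone 2 than in every AQP2-expressing line. Its signal was 141.8 in clone 2, against 1789 in clone 3, 1206.8 in clone 9, 1273.2 in clone 10, 1167 in clone 11 and 972.2 in the original cells. The mean of the expressing lines, 1282 ± 305 (SD, n = 5), was 9.04 times the clone 2 signal, and even their lowest line was 6.85 times it. As a difference of log2(signal + 18.85), clone 2 minus the expressing lines, this is -2.99 (SE 0.274). Since this gap helped choose the genes, it and every other clone 2 difference among the 8 genes is a description and carries no test. Only 11 of 10342 genes (0.106%), Bcat1 included, had a difference this low. In RNA from whole cultures, fewer cells with the transcript and less transcript per cell cannot be told apart.

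The other Bcat1 probe sets had the same order of groups. The first of them gave 74.1 in clone 2 and 303.4 to 553.1 in the expressing lines, whose mean was 5.15 times clone 2. The second gave 84.9 in clone 2 and 334.8 to 564.7 in the expressing lines, with a mean 4.88 times clone 2. At all 3 probe sets clone 3 had the highest signal. The clone 2 signal of the main probe set stood at percentile 57.3 of its array, and those of the expressing lines at percentiles 83.3 to 90.3. That remaining signal was above the array's median, and whether it is background was not tested, since detection calls were not used.

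Bcat2, the mitochondrial aminotransferase, was also lowest in clone 2 but by much less. Its signal was 126.9 in clone 2, against 186.7 in clone 3, 160.8 in clone 9, 164.0 in clone 10, 164.4 in clone 11 and 209.0 in the original cells. Clone 2 was at 71.7% of the mean of the expressing lines, 177 ± 20.7 (SD, n = 5), and the log2 difference was -0.42 (SE 0.256). The groups did not overlap, but clone 2 was below all expressing lines for 26.9% of all genes. No higher Bcat2 signal accompanied the low Bcat1 signal of clone 2.

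**Figure D1:**
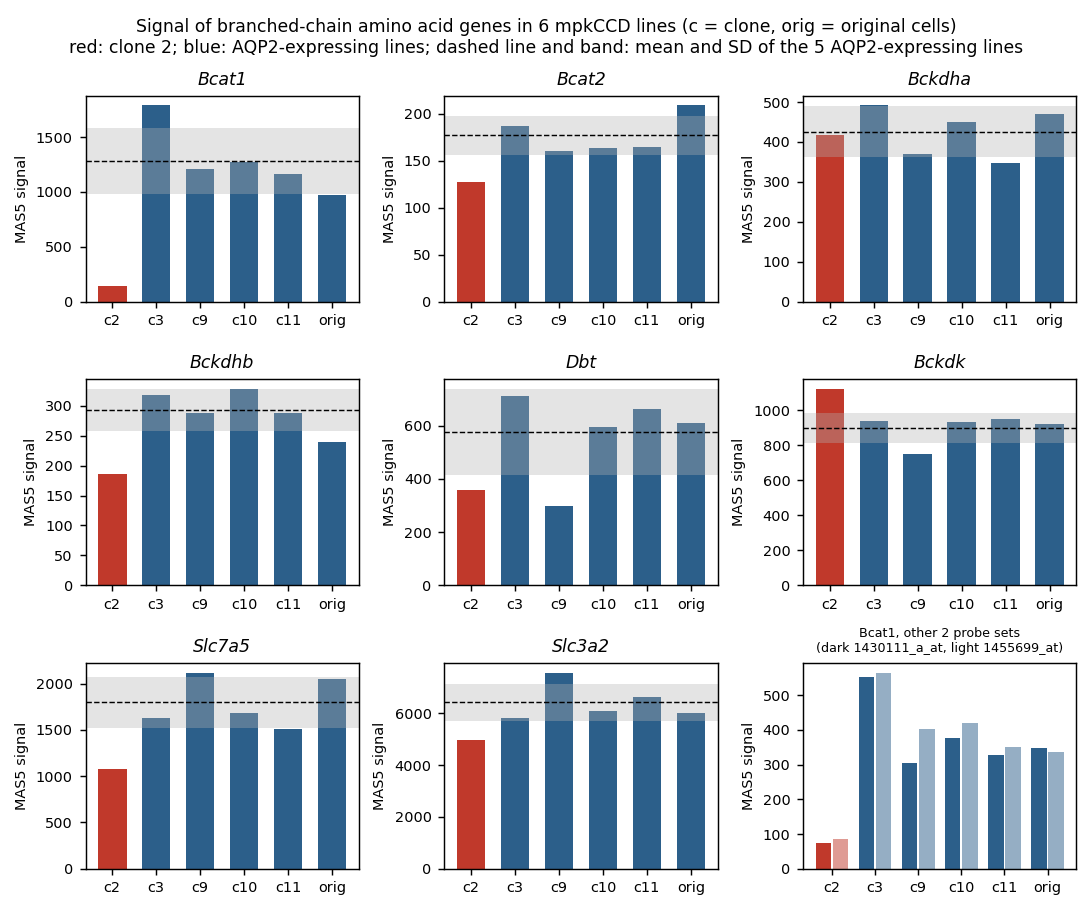
Bars give the MAS5 signal (linear scale starting at 0) of each of the 8 genes in clone 2 (red) and the 5 AQP2-expressing lines (blue), with the mean and SD of the blue bars as dashed line and band, and the last panel gives the other 2 Bcat1 probe sets. Bcat1 is at 141.8 in clone 2 and at 972.2 or more in every expressing line, while Bckdha and Dbt in clone 2 lie within the range of the expressing lines.

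The subunits of the dehydrogenase complex did not share 1 pattern. Bckdha, the E1 alpha subunit, was 416.7 in clone 2, against 491.5 in clone 3, 368.6 in clone 9, 449.5 in clone 10, 347.2 in clone 11 and 470.2 in the original cells. Clone 2 lay inside that range, and its log2 difference was -0.02 (SE 0.232). Bckdhb, the E1 beta subunit, was 186.6 in clone 2, against 318.7 in clone 3, 288.2 in clone 9, 328.2 in clone 10, 288.5 in clone 11 and 239.5 in the original cells. Here clone 2 was below all expressing lines, at 63.8% of their mean of 293 ± 34.6 (SD, n = 5), with a log2 difference of -0.59 (SE 0.23).

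Dbt, the E2 core subunit, was 360.3 in clone 2, against 712.3 in clone 3, 298.5 in clone 9, 597.1 in clone 10, 664.1 in clone 11 and 612.5 in the original cells. The groups overlapped because of clone 9, which was lower than clone 2, and the log2 difference from the mean of the 5 lines was -0.60 (SE 0.39). Bckdk, the inhibitory kinase, was the member with its highest signal in clone 2. It read 1120.8 in clone 2, against 937.2 in clone 3, 749.7 in clone 9, 933.3 in clone 10, 951.6 in clone 11 and 922.0 in the original cells. Clone 2 was 1.25 times the mean of the expressing lines, 899 ± 84 (SD, n = 5), a log2 difference of 0.32 (SE 0.18). A further Bckdk probe set also put clone 2 above the other lines, at 168.9 against 124.1 to 152.3.

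Both chains of the leucine transporter were lowest in clone 2. Slc7a5, the transport-competent light chain, was 1073.4 in clone 2, against 1624.2 in clone 3, 2118.3 in clone 9, 1679.7 in clone 10, 1506.0 in clone 11 and 2051.8 in the original cells. Clone 2 was at 59.8% of their mean of 1796 ± 272 (SD, n = 5), a log2 difference of -0.72 (SE 0.205). Slc3a2, the heavy chain shared with several other transporters, was 4981.8 in clone 2, against 5802.1 in clone 3, 7564.8 in clone 9, 6088.9 in clone 10, 6612.8 in clone 11 and 6002.6 in the original cells. Its clone 2 signal was 77.7% of their mean of 6414 ± 709 (SD, n = 5), a log2 difference of -0.36 (SE 0.154). For both chains the groups did not overlap, with clone 2 below all expressing lines as it was for 26.9% of all genes.

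Across the 8 genes, clone 2 was below all expressing lines for 5, above all of them for Bckdk and inside their range for Bckdha and Dbt. Among all 10342 genes, clone 2 was below all expressing lines for 26.9% and above them for 29.0%. The limma fit over all probe sets put 1 of the 8, Bcat1, past an adjusted p of 0.05, where the share over all genes was 3.14% (1.86% lower), and without clone 9 it put 2 there, Bcat1 and Dbt. The median log2 difference was -0.51 over the 8 genes and 0.01 over all genes tested. Because clone 2 was used in the choice, nothing is read from these counts. Over all genes tested on the members' chromosomes, the median log2 difference was 0.13 on chromosome 6 (Bcat1), 0.19 on chromosome 7 (Bcat2, Bckdha and Bckdk), -0.02 on chromosome 9 (Bckdhb), -0.20 on chromosome 3 (Dbt), -0.01 on chromosome 8 (Slc7a5) and -0.23 on chromosome 19 (Slc3a2).

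None of the measured neighbours of Bcat1 on chromosome 6 that passed the filter was called lower in clone 2. Of the 6 measured genes on each side, 6 of 12 passed the filter. Of these 0 passed the limma test at an adjusted p of 0.05, where 3.14% of all genes did (1.86% lower). With so few genes, 0 is near that share and is not read as a result about the neighbours. By limma 2 were at an unadjusted p under 0.05 (Cmas and Rassf8, both higher in clone 2), against 22.3% of all genes. Cmas, which makes activated sialic acid, lies 2269 kb away (between gene midpoints) and was 2254.6 in clone 2 and 1355.6 to 1747.5 in the expressing lines (log2 difference 0.56, SE 0.18, limma adjusted p = 0.132). Rassf8, 749 kb away on the other side, was 1208.8 in clone 2 and 619.2 to 900.8 in the expressing lines (log2 difference 0.59, SE 0.23, limma adjusted p = 0.198). The nearest neighbours past the filter were Etfrf1, 179 kb away, with 912.0 in clone 2 and 686.9 to 1229.2 in the expressing lines, and Gm15706, 216 kb away, with 120.7 in clone 2 and 102.2 to 143.6 in the expressing lines. Their log2 differences were -0.14 and -0.04. C2cd5 and Etnk1 differed by 0.16 and 0.04. The other 6 neighbours (St8sia1, D6Ertd474e, Sox5, Lrmp, 1700073E17Rik and Tuba3b) reached at most percentile 46.9 of any array and were too dim to compare. Of these D6Ertd474e was below all expressing lines in clone 2, at 2.0 against 6.2 to 16.5.

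**Figure D2:**
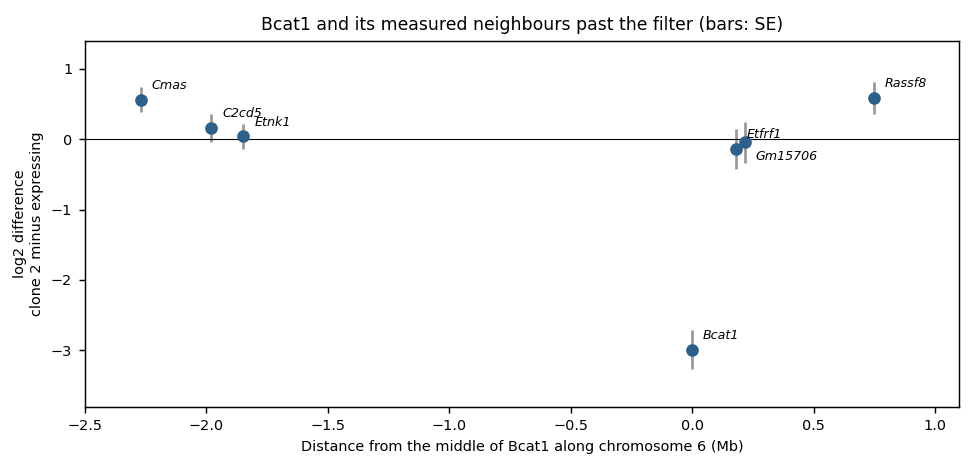
Points give the log2 difference, clone 2 minus the mean of the 5 AQP2-expressing lines, for Bcat1 and its 6 measured neighbours past the filter, against their distance from Bcat1 on chromosome 6 (bars, SE). Bcat1 is at -2.99 and its neighbours lie between -0.14 and 0.59.

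The genes whose profile over the 6 lines was most like that of Bcat1 were found by the root mean square difference of centred log2 values, over 10341 other genes. The nearest were Lrp2 (0.172), Rbm45 (0.334), Aqp6 (0.356), Col27a1 (0.377), 1700025G04Rik (0.38), Ebf4 (0.39), Dst (0.396) and Dram1 (0.415). Lrp2, the endocytic receptor megalin, was 115.6 in clone 2 and 808.7 to 1067.2 in the expressing lines. Aqp6, a water channel of intercalated cells, was 39.0 in clone 2 and 221.8 to 328.1 in the expressing lines. All 8 were low in clone 2. This follows from how they were found, because the clone 2 gap dominates the Bcat1 profile, and nothing is read from it. Over the 5 expressing lines alone Lrp2 ranked 172 in likeness to Bcat1, and the other 7 ranked 1733 to 8612. Among the branched-chain genes the nearest to Bcat1 over the 6 lines was Bckdhb, at rank 544. Its root mean square difference was 0.91, and by its rank this is necessarily larger than those of the 8 genes above.

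For Slc7a5 the nearest over the 6 lines were Utp4 (0.054), Abca3 (0.0633) and Rbm34 (0.0704). Over the 5 expressing lines, which are part of the 6 used to find them, they ranked 5, 21 and 27. Slc7a5 varies less than Bcat1, so the sizes of these differences cannot be set against those for Bcat1. Utp4, a ribosome biogenesis factor, was 1190.6 in clone 2, against 1793.5 in clone 3, 2289.4 in clone 9, 1701.0 in clone 10, 1582.1 in clone 11 and 2071.8 in the original cells, which is the order of Slc7a5 except that clone 3 and clone 10 change places. Slc3a2, the partner of Slc7a5 in the transporter, was at rank 590 over the 6 lines and at rank 1943 over the expressing lines.

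**Figure D3:**
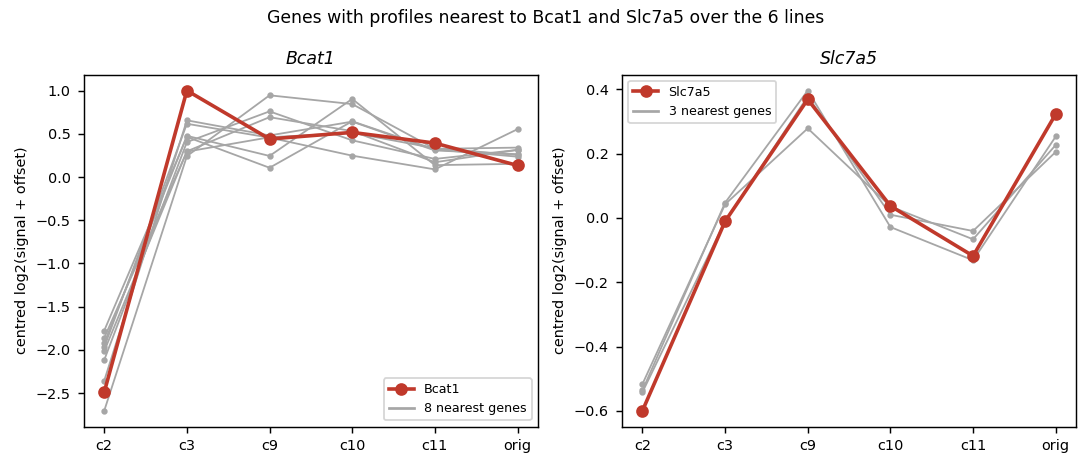
Centred log2 profiles over the 6 lines (y axis, log2 units around each gene's mean) are drawn for Bcat1 with its 8 most similar genes and for Slc7a5 with its 3 most similar genes. All the Bcat1 group and all the Slc7a5 group have their lowest value in clone 2, which the choice by likeness over all 6 lines favours. The y axes of the panels differ in range.

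The rule that chose the genes did not use differences among the 5 AQP2-expressing lines, though earlier results of these data were known when it was made. These differences were tested with limma, each line against the other 4 with clone 2 left out. Dbt was lower in clone 9, at 298.5 against 646 ± 52.4 in the other 4 lines (SD, n = 4), which was 2.17 times the clone 9 signal. The log2 difference was -1.06 (SE 0.18, limma adjusted p = 0.0491), and clone 9 was below each of the other 4. This was 1 of 8 genes called in clone 9, where 0.716% of all genes were called and 0.609% were called lower. The call was close to the threshold, with adjusted p-values of 0.0403 to 0.11 over 11 alternatives. Leaving out clone 3, 10, 11 or the original cells ended the call, at 0.0986, 0.0941, 0.0513 and 0.0987, while the difference kept its size (-1.11 to -1.02 over all 11).

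The other differences of clone 9 did not pass. Slc3a2 was 7564.8 in clone 9 and 6127 ± 346 in the other 4 lines (SD, n = 4). The log2 difference was 0.31 (SE 0.118; limma adjusted p = 0.34). Slc7a5 was 2118.3 in clone 9 and 1715 ± 236 in the other 4 (SD, n = 4). Its log2 difference was also 0.31 (SE 0.18; limma adjusted p = 0.516). Both transporter chains thus had their highest signal in clone 9. Bckdk was 749.7 in clone 9 and 936 ± 12.2 in the other 4 (SD, n = 4), and the difference on the log2 scale was -0.31 (SE 0.149; limma adjusted p = 0.427). Its further probe set did not place clone 9 low, with 150.4 in clone 9 and 124.1 to 152.3 in the others.

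Bcat1 varied 1.84-fold among the expressing lines. Clone 3 had 1789, against 1155 ± 129 in the other 4 lines (SD, n = 4), and this difference of 0.63 log2 units (SE 0.194) did not pass (limma adjusted p = 0.999). The SD of the log2 values over the 5 lines was 0.32 for Bcat1, at percentile 82.1 of all genes tested, and 0.49 for Dbt, at percentile 93.8. Those of Bcat2, Bckdhb, Bckdk and Slc3a2 were between 0.14 and 0.17. By limma, 0 of the 8 genes were called in clone 3 (1 at an unadjusted p under 0.05, Bcat1), 0 in clone 10, 0 in clone 11 and 0 in the original cells (0 each at an unadjusted p under 0.05). The shares called over all genes were 0.00967%, 0.00%, 0.00967% and 0.00967% in these 4 comparisons. The 5 comparisons share arrays and are not independent.

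**Figure D4:**
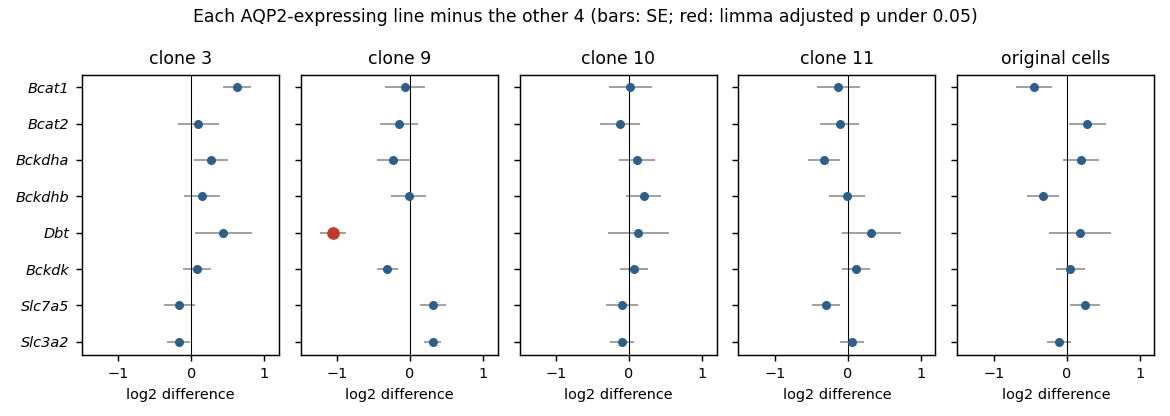
Points give the log2 difference of each AQP2-expressing line minus the mean of the other 4 for the 8 genes, with the SE as bars and the limma call in red. Dbt in clone 9, at -1.06, is the one called difference.

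The signals of the 8 genes were also set against that of Aqp2 over the 5 expressing lines. By limma, 0 of 8 had a slope past the threshold and 0 had an unadjusted p under 0.05, where 0.0193% of all genes were called. The slopes ran between -0.16 and 0.09 log2 units per log2 unit of Aqp2, with limma adjusted p-values of 0.571 to 0.993. Bcat1 had the slope of -0.16 (SE 0.104), so no higher Bcat1 signal was measured with a higher Aqp2 signal within the expressing lines. In simulated data this test called 0% of changes of 0.5 log2 units between the lowest and highest Aqp2 signal. It called 6.8% of changes of 1 and 51.6% of changes of 2. A slope that did not pass is therefore not shown to be absent.

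Around these 8 genes, 119 others of the pathway were listed in 8 groups, of which 113 were measured and 101 passed the filter. The filter uses the mean of all 6 arrays, so it keeps genes dim only in clone 2 more readily than genes bright only in clone 2. Slc7a7 passed with 74.4 in clone 2, under the cutoff of 85.46. Rragd, at 103.1 in clone 2 and 9.5 to 56.3 in the expressing lines, did not pass. The shares given for all genes went through the same filter. In clone 2, 4 of the 101 were lower than in the expressing lines and 0 higher by limma, a share of 3.96% called lower against 1.86% of all genes (3.14% in either direction), and the median log2 difference was -0.13 against 0.01 for all genes. The share at an unadjusted p under 0.05 was 24 of 101 (23.8%), against 22.3% of all genes. The 4 were Mccc1, Slc7a7, Aars and Glul. The count was 1 without clone 3, 6 without clone 9, 1 without clone 10, 0 without clone 11 and 0 without the original cells, with 20 to 22 at an unadjusted p under 0.05 where it was 0.

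After the dehydrogenase complex, leucine carbon passes through methylcrotonyl-CoA carboxylase, whose alpha subunit is Mccc1. Mccc1 was 532.0 in clone 2, against 974.7 in clone 3, 972.0 in clone 9, 828.8 in clone 10, 995.6 in clone 11 and 894.0 in the original cells. Clone 2 was thus below all expressing lines, as it was for 26.9% of all genes. Its log2 difference was -0.79 (SE 0.169, limma adjusted p = 0.0494, and 0.0381 to 0.0968 over alternatives). The other 3 measured genes of leucine breakdown, Ivd, Mccc2 and Auh, did not pass, and the list median was -0.19 (1 of 4 at an unadjusted p under 0.05, Mccc1). In the valine and isoleucine branch 0 of 14 passed by limma (median -0.14, 2 at an unadjusted p under 0.05). Hibadh, a dehydrogenase of valine breakdown, was 3891.4 in clone 2 and 2914 ± 359 in the expressing lines, and Acaa2, a mitochondrial thiolase, was 2329.7 in clone 2 and 3245 ± 839 in the expressing lines (SD, n = 5 each). Of the 6 partners of the complex 0 passed (median -0.21, 1 at an unadjusted p under 0.05). Among these Dld, the shared E3 subunit, was 2091.7 in clone 2 and 1603 ± 33.4 in the expressing lines (SD, n = 5; log2 difference 0.38, limma adjusted p = 0.165), and Lias, which makes the lipoyl cofactor of E2, was 2000.2 in clone 2 and 1877 ± 150 in the expressing lines (SD, n = 5).

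Of 10 other neutral amino acid transporters past the filter 1 was lower in clone 2 (median -0.19, 4 at an unadjusted p under 0.05). Slc7a7, a further light chain that pairs with Slc3a2, was 74.4 in clone 2, against 176.0 in clone 9 and 215.4 to 308.4 in the other 4 expressing lines. Its log2 difference was -1.45 (SE 0.297, limma adjusted p = 0.0438, and 0.021 to 0.103 over alternatives). Of 12 genes that handle glutamate and 2-oxoglutarate, the partners of the aminotransferase reaction, 1 was lower (median -0.22, 5 at an unadjusted p under 0.05). Glul, glutamine synthetase, was 92.1 in clone 2, against 252.3 in clone 3, 261.0 in clone 9, 283.6 in clone 10, 314.3 in clone 11 and 389.4 in the original cells. Its log2 difference was -1.51 (SE 0.265, limma adjusted p = 0.0282, and 0.0219 to 0.0653 over alternatives).

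The list of the ATF4 response, which raises amino acid synthesis and transport genes when amino acids are short and counts Slc7a5 and Slc3a2 among its known targets, had 1 of 20 lower (median -0.30, 6 at an unadjusted p under 0.05). Aars, the cytosolic alanyl-tRNA synthetase, was 2916.2 in clone 2, against 4852.5 in clone 3, 6068.8 in clone 9, 4516.9 in clone 10, 4656.5 in clone 11 and 5212.8 in the original cells. Its log2 difference was -0.78 (SE 0.166, limma adjusted p = 0.0469, and 0.0234 to 0.113 over alternatives). Of 25 genes of leucine sensing and mTORC1 0 passed by limma (median 0.12, 3 at an unadjusted p under 0.05). Rheb, the small GTPase that activates mTORC1, was 7370.3 in clone 2 and 6986 ± 382 in the expressing lines, and Lamtor1, the lysosomal anchor of the Ragulator complex, was 7834.1 in clone 2 and 6372 ± 670 in the expressing lines (SD, n = 5 each). Of 11 genes of the MYC network and other regulators 0 passed (median 0.01, 2 at an unadjusted p under 0.05). Myc, known in other cell types to activate Bcat1, was 1988.5 in clone 2 and 2500 ± 251 in the expressing lines (SD, n = 5; log2 difference -0.32, limma adjusted p = 0.305), and Mxi1, a MYC antagonist, was 2703.3 in clone 2 and 2741 ± 157 in the expressing lines (SD, n = 5).

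**Figure D5:**
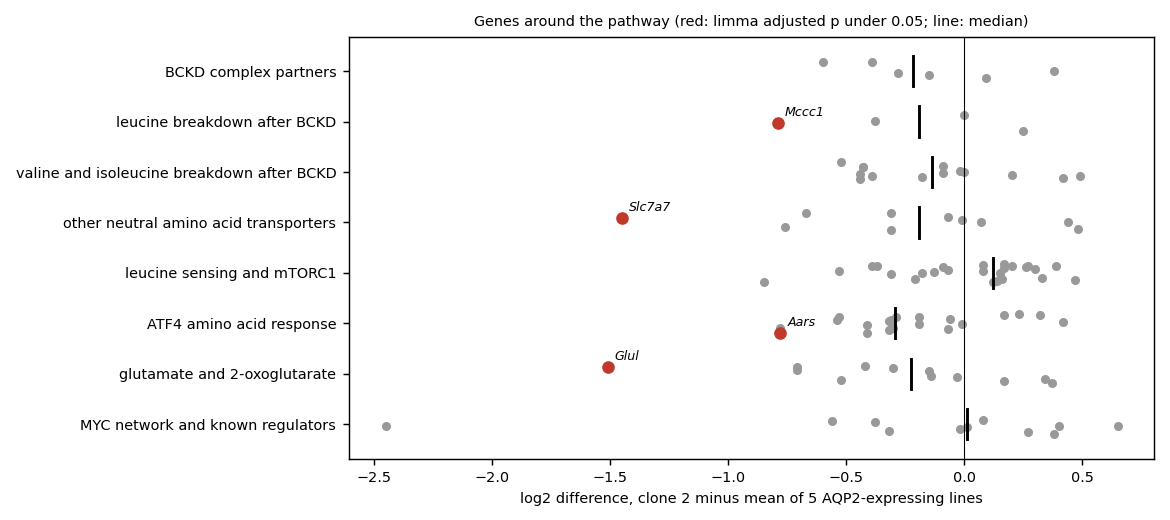
Each point is 1 gene of the 8 pathway lists, placed by its log2 difference, clone 2 minus the mean of the 5 AQP2-expressing lines; black bars are list medians and red points have a limma adjusted p under 0.05. The red points are Mccc1, Slc7a7, Aars and Glul, and the list medians lie between -0.30 and 0.12.

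Among the expressing lines the ATF4 list was uneven. Clone 9 had the highest signal of the 5 lines for 9 of the 20 genes, among them Atf4, Asns, Psat1 and Phgdh, where clone 9 was highest for 25.3% of all genes. Clone 11 had the lowest signal for 12 of the 20, where it was lowest for 18.9% of all genes. Slc7a5 was highest in clone 9 and lowest in clone 11 as well. Slc3a2 was also highest in clone 9 but not lowest in clone 11, with 6612.8 there and its lowest signal, 5802.1, in clone 3. By limma, 0 of the 20 passed the test of clone 9 against the other 4 lines (2 at an unadjusted p under 0.05). Over all genes tested, 1543 of 10342 were at an unadjusted p under 0.05 in that comparison. In the test of clone 11 against the other 4, 0 of the 20 passed (6 at an unadjusted p under 0.05). There 1037 of all 22518 probe sets tested were at an unadjusted p under 0.05. This last count is per probe set, while the list counts and the clone 9 count over all genes are per gene. These counts describe an order of signals.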

How the data were processed

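The deposited values are linear signal intensities computed by MAS5 in Affymetrix Expression Console (version 1.1, per the submitters' processing notes). After trimming 2% of probe sets at either end, each of the 6 arrays had a mean of 500, so they had been brought to 1 scale. MAS5 subtracts mismatch signal, which makes low values noisy. The 64 control probe sets were left out. Of 45037 others, 34741 had 1 current gene symbol, 204 had 1 older symbol, 932 had several genes and 9160 none named. Signals were put on a log2(signal + 18.85) scale (offset: 25th percentile of the values), which understates differences between dim probe sets. A filter kept the 22518 probe sets, for 10342 genes, whose mean signal exceeded the median of 85.46. Tests were two-sided and used limma (version 3.58.1, R 4.3.3, lmFit, eBayes with trend). Benjamini-Hochberg adjustment was over all kept probe sets, with 0.05 as the threshold. The scripts were checked on simulated data. For clone 2, 0.8% of simulated differences of 0.5 log2 units were called, 21.6% of those of 1 and 75.2% of those of 2. For the original cells against the other 4 lines the shares were 0.4%, 14.8% and 66%. A small difference that did not pass is therefore not shown to be absent. The number of arrays limits the precision. For clone 2, p-values measure only the spread between the 5 AQP2-expressing lines, each a single array. For 1 expressing line against the rest they measure the spread between the other 4 lines. For the slope they measure the spread of the 5 lines around the fitted slope. Groups followed the labels. The title of the original cells' sample calls them a clone.

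The members and gene lists were chosen with earlier results of these data known. Named genes were the 8 members and Aqp2, up to 4 called genes per list by size of difference or else the 2 of highest mean signal, the 8 genes most like Bcat1, the 3 most like Slc7a5, and the 6 measured genes on each side of Bcat1. The alternatives changed the offset, filter, scaling, variance model or left out a line. Promoter windows, gene positions and current symbols came from RefSeq tables of GRCm38.p6.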

Additional observations from a re-analysis of the deposited data

Results flagged for a closer look

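In 3 of 44 named genes checked, 1 of the 5 AQP2-expressing lines stood apart from the rest, with a gap to its nearest neighbour that took more than 0.71 of the range of the 5 lines. The same held for 5.93% of all genes tested. Dbt was 298.5 in clone 9 and 597.1 to 712.3 in the other 4 lines, and the gap was 0.722 of the range. Bckdk was 749.7 in clone 9 and 922.0 to 951.6 in the other 4, a gap of 0.853 of the range. Dld, the E3 subunit, was 1545.7 in clone 3 and 1606.7 to 1627.1 in the other 4, a gap of 0.75 of a narrow range.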

How the results depend on the processing

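The Bcat1 log2 difference of clone 2 was between -3.15 and -2.85 in 13 alternatives of processing or left-out lines, and -2.08 and -2.04 at its other probe sets, and no called result changed sign in any alternative. Because clone 2 was used to choose the members, their differences and counts in clone 2 are descriptions in every alternative. The count of called members in clone 2 was 1 in all alternatives that kept the 5 expressing lines, and 1 to 2 when 1 line was left out (2 without clone 9, where Dbt also passed). The count of 4 called pathway genes was 0 without a filter, 1 with median centring and 1 without a mean-variance trend, and 0 to 6 when 1 line was left out. The cause was not tested, except that leaving out a line or the filter changes the number of samples or of probe sets tested. The 1 call among the expressing lines, Dbt in clone 9, became 0 with a doubled offset (adjusted p = 0.0532), 0 without a filter (0.11), 0 without a trend (0.11) and 0 with a filter at the 75th percentile, which Dbt did not pass. It was 0 to 0 when 1 line was left out, clone 9 included, with 1 to 4 members at an unadjusted p under 0.05 by limma wherever it was 0. The count of members with a slope on Aqp2 was 0 in all 13 alternatives, with at most 1 at an unadjusted p under 0.05 by limma. Mccc1, Slc7a7, Aars and Glul stayed under 0.05 in 4 of 13, 4 of 12, 6 of 13 and 9 of 12 alternatives. No paired analysis was possible because the groups share only replicate number 1, which is a name, and clone 2 is a single array. With 1 array a line, small differences lie within the spread between lines, and low MAS5 signals are limited by background.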

Other observations

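Oat, ornithine aminotransferase of the glutamate list, was named after its values were seen. Its single probe set read 1.6 in clone 11, against 658.6 in clone 3, 1546.7 in clone 9, 777.9 in clone 10 and 854.1 in the original cells, and it read 541.3 in clone 2. Ppargc1a, a coactivator of mitochondrial genes, was also named after its values were seen. It had the lowest log2 difference of its list in clone 2 without passing the test (-2.45, SE 0.769, limma adjusted p = 0.127), with 17.4 in clone 2 and 59.3 to 412.4 in the AQP2-expressing lines.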
